A study of Homo sapiens with 2 samples.

Results

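The 36 genes described here encode the glycolytic pathway with its carriers and regulators (24 genes) and the response to low oxygen (12 genes). They were taken by symbol from a given list, and all 36 were found among the 31845 genes of the deposited expression table. The study compared an olaparib-resistant derivative of Capan-1 with parental Capan-1, by RNA sequencing of 1 library each. Resistance was reached by growth in rising olaparib doses, 15 nM at the start and 128 uM at the end. Capan-1 is a cultured cell line from a pancreatic adenocarcinoma and carries a BRCA2 mutation, although the labels give breast cancer as the cell type. Olaparib inhibits PARP enzymes. Both libraries come from that line. Whether the derivative kept the BRCA2 mutation unchanged was not tested here. The labels give RPMI1640 with 10% serum as the medium of the line. They do not say whether the drug was present at harvest, how oxygen was set, how dense the cultures were or whether the derivative is a clone. The count columns headed CAPAN1 were read as parental. The heading of the other columns is not spelled out in the labels, and these were read as resistant as the only library left, so every direction below rests on that reading.

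Glycolysis splits glucose into pyruvate in a chain of enzyme steps, and lactate dehydrogenase turns pyruvate into lactate when it is not burned in mitochondria. Many of its genes are targets of hypoxia-inducible factor (HIF), a pair of an oxygen-labile alpha subunit and the stable ARNT. In the presence of oxygen, the EGLN prolyl hydroxylases mark the alpha subunit for destruction through VHL, and EGLN3 is itself a HIF target. Pancreatic adenocarcinoma is known for poor blood supply and heavy use of glucose.

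The libraries held 34507480 counts (resistant) and 34572931 counts (parental). All 6 epithelial markers reached 50 counts, and 5 were higher in the resistant library, among them KRT19 at 932 FPKM (resistant) and 704 FPKM (parental). The duct factor gene SOX9 was lower, at 5.13 FPKM (resistant) and 8.25 FPKM (parental), a ratio of 0.60 with an interval of 0.565 to 0.637. Markers of other cells were sparse: the 4 measured fibroblast markers summed to 2.24 FPKM (resistant) and 0.309 FPKM (parental), with LUM at 523 and 35 counts, COL1A1 the other way at 38 and 97, and DCN at 5 and 0. Of 4 leukocyte markers, CD68 had 582 and 351 counts and the others at most 19, among them CD14 at 0 and 7, and the endothelial marker VWF had 3 and 0 counts. Their part in the results was not tested. Fewer cells of a type and less RNA per cell cannot be told apart in such bulk libraries. Ratios below are resistant over parental after TMM scaling, which corrects for library size and composition. A gene entered the summaries when its higher library reached 50 counts, and 2-fold was the size used to call a difference. Neither group has a replicate, so no test was made, and the 95% intervals cover counting error only.

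Of the 36 genes, 31 had at least 50 counts in a library. None of the 31 reached a 2-fold higher level in the resistant library, where 6.0% of all 15102 genes at that minimum were. VEGFA and EGLN3 were at least 2-fold lower, 2 of 31, where 8.95% of all genes were, and 15.0% of all genes were past 2-fold either way. Of the 31, 20 had a log2 ratio above 0 of any size, where 51.2% of all genes did. At 1.5-fold, 6 were higher and 3 lower, beside 16.8% and 21.2% of all genes. The counting interval lay above equal levels for 19 members and below for 10, beside 43.7% and 41.2% of all genes, so depth set the limit for only PDK1 and PDK3. Both are among the 763 genes with a log2 ratio within 0.1 of 0. This range was thinly filled in the whole table, which had 1532 genes from -0.3 to -0.1 and 1906 from 0.1 to 0.3.

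**Figure D1:**
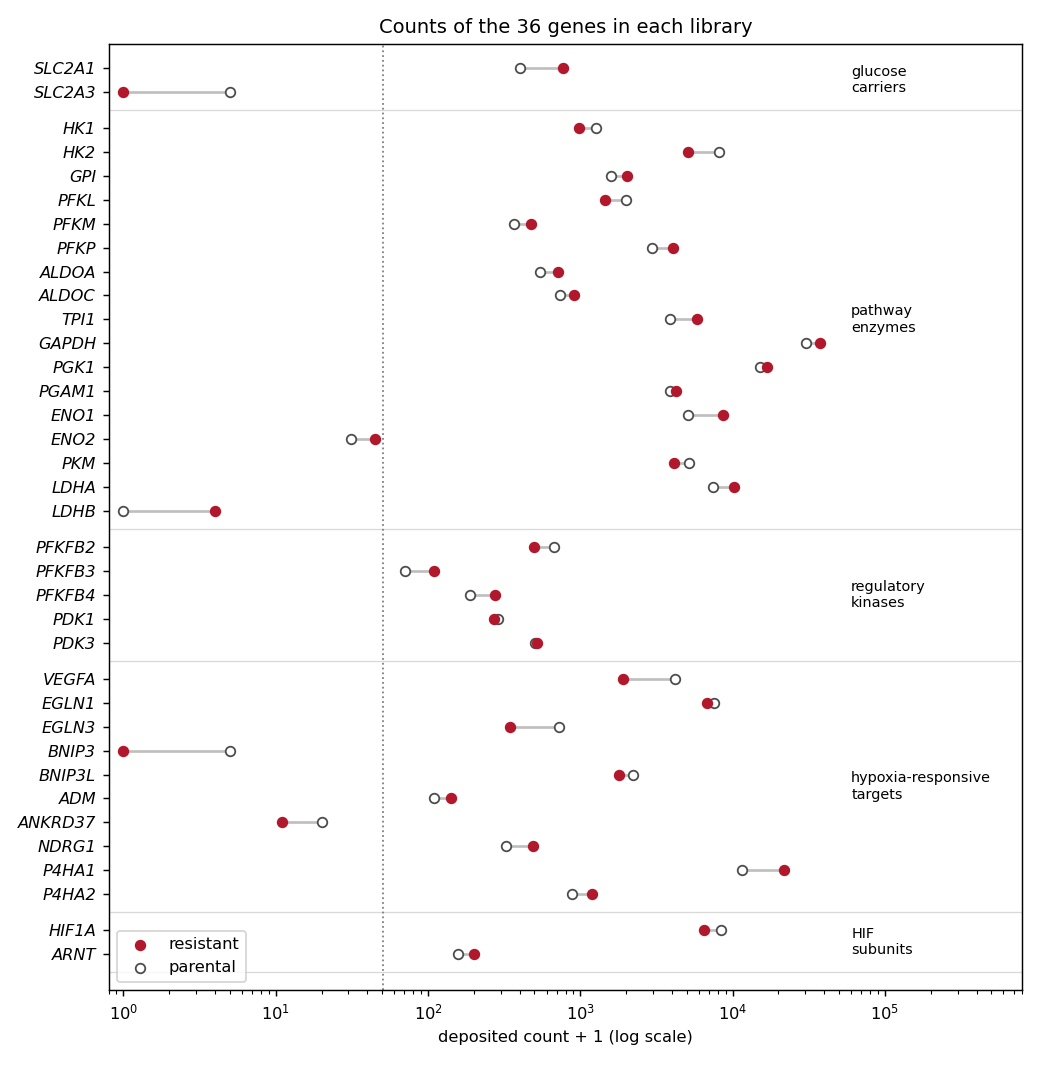
Deposited count plus 1 of each of the 36 genes on a log axis, by role, in the resistant (filled) and the parental library (open); the dotted line marks 50 counts. Most pairs lie close together, VEGFA and EGLN3 are lower in the resistant library, and SLC2A3, LDHB and BNIP3 are near 0 in both.

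The 24 glycolytic genes and the 12 hypoxia-responsive genes differed in their summaries. Of the 21 glycolytic genes at the count minimum, 15 had a log2 ratio above 0, where 51.2% of all genes did. Their median was 0.31, against a median of 0.06 over all genes. Of the 10 hypoxia-responsive genes at the minimum, 5 were above 0 and 5 below, with a median of 0.11. These 10 include the HIF subunit genes HIF1A and ARNT. The 8 targets alone had a median of 0.13, with 4 above 0 and 4 below. The median of the 10 sits between values on both sides of 0. It turned to -0.13 with a minimum of 10 counts and to -0.21 with 200 counts, where all genes had medians of -0.04 and 0.11. Once the trend of the ratio with gene length was removed, the hypoxia and glycolytic medians were both 0.34, against 0.14 over all genes.

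**Figure D2:**
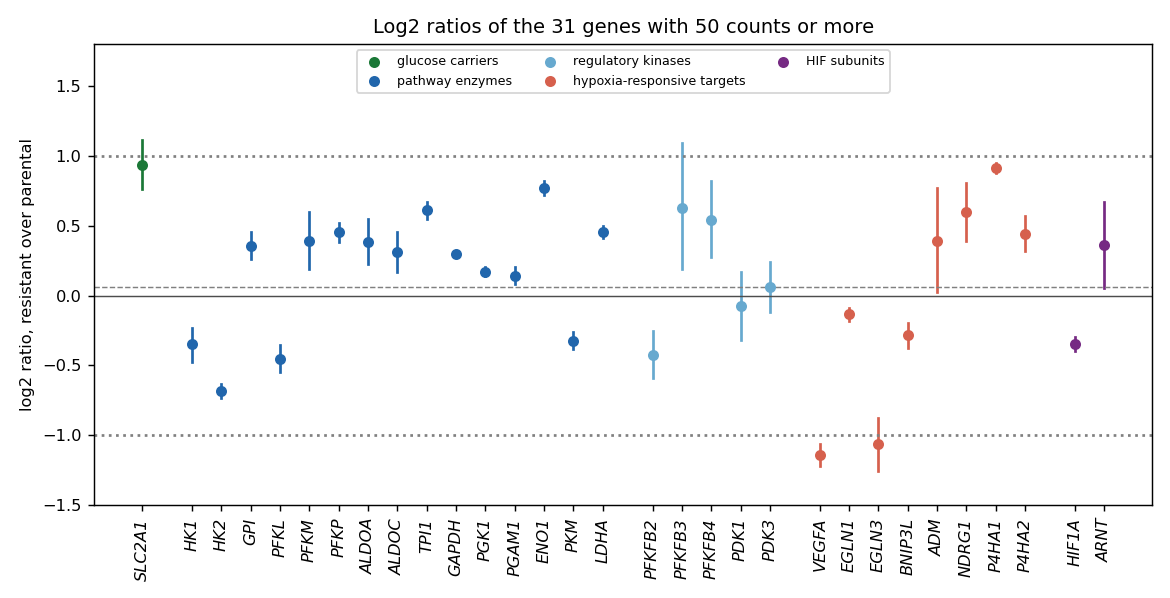
Log2 ratio of the resistant over the parental library for the 31 genes with at least 50 counts, in pathway order within each role; bars are 95% counting intervals, dotted lines mark 2-fold and the dashed line the median of all genes. HK1, HK2, PFKL, PKM, PFKFB2 and PDK1 lie below 0, and most other glycolytic genes lie above.

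HIF binds DNA at a short core motif in the control regions of its targets. Shown to set that motif beside the ratios are the RefSeq windows (GRCh38.p14, 250 bases before to 50 after the listed start, in the direction of the gene) of the 3 highest and the 2 lowest members with an entry among those with at least 50 counts, and of LDHA, the lactate-forming enzyme and a classic HIF target. Capitals mark the core of the HIF binding motif, ACGTG or GCGTG, on either strand, so that CACGT and CACGC mark the opposite strand.
SLC2A1: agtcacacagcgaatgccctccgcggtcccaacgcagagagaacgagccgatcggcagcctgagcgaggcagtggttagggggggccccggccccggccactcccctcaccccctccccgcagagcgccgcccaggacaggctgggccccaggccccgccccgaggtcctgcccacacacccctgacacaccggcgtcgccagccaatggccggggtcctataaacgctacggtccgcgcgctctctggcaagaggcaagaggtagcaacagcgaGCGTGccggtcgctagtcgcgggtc
P4HA1: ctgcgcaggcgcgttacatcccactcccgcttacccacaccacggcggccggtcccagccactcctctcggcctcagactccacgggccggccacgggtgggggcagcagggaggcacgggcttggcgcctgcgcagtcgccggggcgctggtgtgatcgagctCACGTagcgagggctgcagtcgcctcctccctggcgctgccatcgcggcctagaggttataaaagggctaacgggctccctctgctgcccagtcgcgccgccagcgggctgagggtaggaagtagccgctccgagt
ENO1: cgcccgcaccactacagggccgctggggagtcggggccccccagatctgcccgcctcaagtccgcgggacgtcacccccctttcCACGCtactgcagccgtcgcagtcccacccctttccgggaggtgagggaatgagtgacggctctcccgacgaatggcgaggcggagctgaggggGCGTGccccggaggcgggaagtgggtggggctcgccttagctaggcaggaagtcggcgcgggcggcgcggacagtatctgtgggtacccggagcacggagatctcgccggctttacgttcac
HK2: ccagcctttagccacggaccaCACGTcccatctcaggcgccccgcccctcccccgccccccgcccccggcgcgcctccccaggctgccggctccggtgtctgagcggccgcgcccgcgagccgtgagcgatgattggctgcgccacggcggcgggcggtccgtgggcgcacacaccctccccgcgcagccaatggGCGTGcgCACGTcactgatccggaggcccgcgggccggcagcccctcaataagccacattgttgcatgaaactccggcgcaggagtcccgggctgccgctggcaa
EGLN3: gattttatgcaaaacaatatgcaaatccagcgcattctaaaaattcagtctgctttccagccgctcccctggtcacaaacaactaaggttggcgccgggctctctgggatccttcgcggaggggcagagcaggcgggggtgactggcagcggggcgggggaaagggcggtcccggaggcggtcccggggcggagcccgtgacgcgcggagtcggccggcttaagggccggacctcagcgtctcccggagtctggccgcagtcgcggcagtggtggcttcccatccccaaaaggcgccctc
LDHA: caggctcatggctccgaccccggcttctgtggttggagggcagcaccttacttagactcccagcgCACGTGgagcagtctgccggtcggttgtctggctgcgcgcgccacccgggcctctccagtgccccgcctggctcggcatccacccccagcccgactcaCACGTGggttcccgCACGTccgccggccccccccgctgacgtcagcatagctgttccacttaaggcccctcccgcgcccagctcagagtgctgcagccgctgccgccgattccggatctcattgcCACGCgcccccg
These windows lie at chr1:42958819-42959118 (minus strand), chr10:73096817-73097116 (minus), chr1:8878637-8878936 (minus), chr2:74833877-74834176 (plus), chr14:33951025-33951324 (minus) and chr11:18394313-18394612 (plus). LDHA had 6 matches, with each CACGTG counted on both strands, HK2 had 3, ENO1 2, P4HA1 and SLC2A1 1 each, and EGLN3 0. The core was thus present in members that were higher and in HK2, which was lower, and it was not in the window of EGLN3. Of 31 members with an entry, 22 (71.0%) had a match. The share was 48.4% of all 27305 promoters and 63.2% of the 10242 whose gene reached 50 counts, and member windows were richer in G and C, with a median of 69.7% against 65.0% in that second set. Among members at the count minimum, the median log2 ratio was 0.33 for the 18 with a match and 0.36 for the 9 without. SLC2A3, PFKFB2, VEGFA, BNIP3L and NDRG1 had no entry, and for the 10 members with several starts the first listed was used. A match describes letters and not a bound site.

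Glucose enters cells through SLC2A1 (GLUT1), the main carrier of epithelial cancer cells. SLC2A1 had 764 counts in the resistant and 402 in the parental library, or 9.83 and 4.96 FPKM. It was 1.91-fold higher (interval 1.69 to 2.16), the highest ratio among members at the minimum, and 93.2% of all genes had a lower ratio. With upper quartile scaling its log2 ratio of 0.93 became 1.01, past 2-fold. SLC2A3 (GLUT3), a high-affinity carrier, had 0 and 4 counts, too few to compare. Its processed pseudogene SLC2A3P1 had 4697 resistant and 4141 parental counts, and it overlaps PANK3, whose reads may not be told apart from its own.

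The kinases that trap glucose at the start of the chain were lower. HK2, the hexokinase typical of cancer cells, had 5079 counts in the resistant and 8191 in the parental library, a ratio of 0.624 (interval 0.603 to 0.646). HK1, the general hexokinase, had 985 and 1264 counts (ratio 0.784, interval 0.721 to 0.853). HKDC1, a hexokinase family member outside the 36, had 3561 and 3866 counts. Summed over these 3 genes, hexokinase stood at 40.4 FPKM in the resistant and 50.8 FPKM in the parental library. Their ratio of 0.795 is that of the deposited FPKM, without TMM scaling, and rests on the gene lengths behind FPKM. Which hexokinase leads depends on gene length. On the deposited FPKM scale HK1 made up 46.3% and 45.2% of the sum and HK2 25.6% and 31.5%, while of the counts HK1 had 10.2% and 9.49% and HK2 52.8% and 61.5%. The length that the FPKM values imply was 0.40 of the longest GENCODE transcript for HK1 and 2.57 times it for HK2, so FPKM levels of different genes are compared with that limit. HK2's log2 ratio of -0.68 became -0.27 once the length trend was removed, and that trend uses the same implied lengths.

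GPI, which turns glucose 6-phosphate into fructose 6-phosphate, was 1.28-fold higher with 2015 resistant and 1583 parental counts. Phosphofructokinase, the committed step, differed more in its makeup than in its sum. PFKP, the platelet-type isozyme, had 4031 counts in the resistant and 2965 in the parental library, 1.37-fold higher (interval 1.30 to 1.44). PFKM, the muscle type, was 1.31-fold higher with 475 and 364 counts. PFKL, the liver type, was lower with 1460 and 2009 counts (ratio 0.732, interval 0.683 to 0.783). PFKP therefore made up 50.1% of phosphofructokinase FPKM in the resistant and 38.8% in the parental library, and PFKL 32.4% and 47.0%. By counts alone PFKL made up 24.5% and 37.6%, a shift in the same direction. PFKP led in both libraries by counts, at 67.6% and 55.5%, and per longest GENCODE transcript, at 79.5% and 71.1%. The lead of PFKL in the parental library was thus seen on the FPKM scale only. There the implied length was 0.41 of the longest transcript for PFKL and 1.51 times it for PFKP. The summed FPKM were 55.7 and 50.7.

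Enzymes of the later steps were higher, except PKM. Aldolase splits the sugar into triose phosphates. Its isozyme gene ALDOA had 708 resistant and 545 parental counts, 1.31-fold higher, and ALDOC 905 and 734, 1.24-fold higher. TPI1, triosephosphate isomerase, had 5846 and 3855 counts, or 209 and 132 FPKM, 1.53-fold higher (interval 1.47 to 1.59). GAPDH, often taken as a reference gene, had 37304 resistant and 30497 parental counts, 1.23-fold higher (interval 1.21 to 1.25). The ATP-forming PGK1 was 1.12-fold higher with 16867 and 15100 counts, and PGAM1, phosphoglycerate mutase, 1.10-fold with 4256 and 3881. Both stood near the middle of all genes, of which 54.5% and 53.0% had a lower ratio. ENO1, the main enolase, had 8620 and 5098 counts, or 138 and 78.5 FPKM, 1.70-fold higher (interval 1.64 to 1.76), which was the highest ratio among the enzymes. Its neuronal paralog ENO2 stayed under the minimum with 44 and 30 counts.

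PKM, pyruvate kinase, was lower, with 4130 counts in the resistant and 5197 in the parental library, a ratio of 0.80 (interval 0.768 to 0.833). The table gives 1 value per gene and so does not separate its M1 and M2 forms. LDHA, which makes lactate, had 10186 and 7471 counts, or 182 and 128 FPKM, 1.37-fold higher (interval 1.33 to 1.41). LDHB, the heart-type subunit, was almost without counts, at 3 in the resistant and 0 in the parental library, so that LDHA made up over 99% of lactate dehydrogenase FPKM in both (99.1% and 99.2%). From hexokinase to aldolase 5 of 8 genes had a log2 ratio above 0, and from TPI1 to LDHA 6 of the 7 at the minimum did. Of all genes, 51.2% did. In all, the 24 glycolytic genes held 0.305% of the resistant counts and 0.263% of the parental ones.

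**Figure D3:**
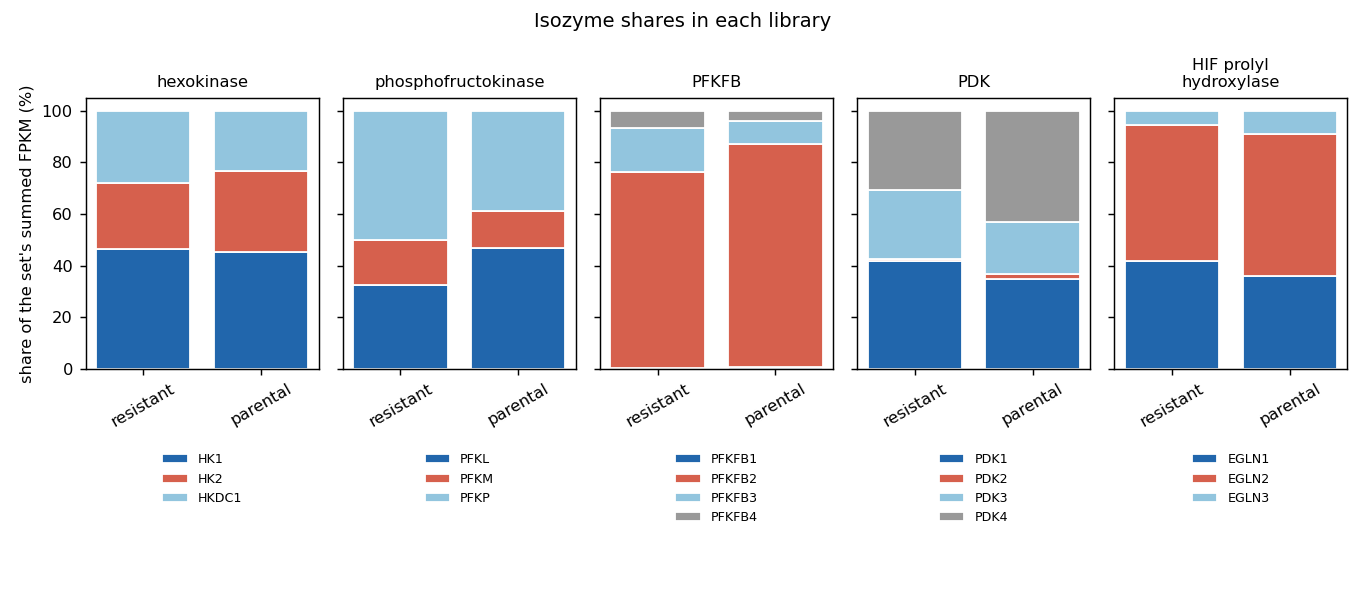
Share of each isozyme in the summed FPKM of its set, in percent, in the resistant (left bar) and the parental library (right bar) of each pair. PFKL is 32.4% against 47.0% of phosphofructokinase, and PFKFB2 76.1% against 86.3% of the PFKFB enzymes.

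The regulatory kinases differed among themselves. The PFKFB enzymes make and break fructose 2,6-bisphosphate, the main activator of phosphofructokinase. PFKFB2, the heart type, had 498 counts in the resistant and 672 in the parental library, a ratio of 0.746 (interval 0.663 to 0.839). The hypoxia-inducible PFKFB3 and PFKFB4 were higher, PFKFB3 1.55-fold with 108 and 70 counts (interval 1.14 to 2.13) and PFKFB4 1.46-fold with 274 and 189 (interval 1.21 to 1.77). PFKFB2 made up 76.1% of PFKFB FPKM in the resistant and 86.3% in the parental library, and 56.1% and 71.0% of the counts. Per longest GENCODE transcript it made up 40.3% and 55.5%, with PFKFB4 ahead in the resistant library at 43.9%, so the leading isozyme there depends on the length used. The PDK kinases switch off pyruvate dehydrogenase and keep pyruvate from being oxidized in mitochondria. PDK1, a HIF target, had 271 and 287 counts (ratio 0.951, interval 0.802 to 1.13), and PDK3 520 and 502 (ratio 1.04, interval 0.921 to 1.18). Neither difference was detectable at this depth. PDK4, the starvation-induced member outside the 36, made up 30.9% of PDK FPKM in the resistant and 43.0% in the parental library, but 60.1% and 72.4% of the counts. PDK1 led PDK4 in the resistant library on the FPKM scale only, at 41.7%, where its implied length was 0.11 of its longest transcript.

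Among HIF subunits, HIF1A, the alpha subunit, had 6508 counts in the resistant and 8330 in the parental library, a ratio of 0.786 (interval 0.761 to 0.812). ARNT had 199 and 156 counts, 1.28-fold higher (interval 1.04 to 1.59). EPAS1, which encodes the second alpha subunit HIF-2 alpha and is not among the 36, was 1.88-fold higher with 1499 and 804 counts. Its log2 ratio of 0.91 became 1.26 without the length trend, past 2-fold. HIF1A made up 96.8% of alpha subunit FPKM in the resistant and 98.6% in the parental library, and 81.3% and 91.1% of the counts. HIF activity is set mostly by protein stability, which these data do not measure.

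The hypoxia-responsive targets went both ways. VEGFA, the growth factor that draws in blood vessels, had 1901 counts in the resistant and 4212 in the parental library, or 6.32 and 13.4 FPKM. It was 2.20-fold lower, with a ratio of 0.454 (interval 0.430 to 0.480), and 7.01% of all genes had a lower ratio. EGLN3, the HIF prolyl hydroxylase most readily induced by low oxygen, had 344 and 724 counts, 2.09-fold lower with a ratio of 0.478 (interval 0.419 to 0.545). On the same strand EGLN3 overlaps SPTSSA, which had 3622 resistant and 3881 parental counts. EGLN1, the main oxygen sensor of this family, had 6793 and 7507 counts (ratio 0.911, interval 0.881 to 0.941). VEGFA and EGLN3 both fall short of 2-fold once the length trend is removed, at log2 ratios of -0.88 each, against -1.14 and -1.06. EGLN3 also falls short with upper quartile scaling, at -0.99, and the sign of EGLN1 turns, from -0.13 to 0.34, without the length trend. That trend uses the lengths implied by FPKM. These were 2.57 times the longest GENCODE transcript for EGLN1, 2.44 times for EGLN3 and 0.75 of it for VEGFA, so these shifts carry that limit.

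The collagen prolyl hydroxylases, which need oxygen to mature collagen, were the opposite. P4HA1, the main catalytic subunit, had 21609 counts in the resistant and 11553 in the parental library, or 93.1 and 47.7 FPKM, 1.88-fold higher (interval 1.84 to 1.93). Its log2 ratio of 0.91 became 1.09 without the length trend, past 2-fold, with an implied length of 2.36 times its longest transcript. P4HA2 was 1.36-fold higher with 1196 and 885 counts (interval 1.25 to 1.49). NDRG1, a stress-induced gene that marks differentiation, was 1.51-fold higher with 490 and 326 counts (interval 1.31 to 1.75). ADM, the vessel-relaxing peptide adrenomedullin, had 141 and 108 counts, 1.31-fold higher with an interval of 1.02 to 1.70.

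The mitophagy receptors BNIP3 and BNIP3L, which remove mitochondria in low oxygen, stood far apart in level. BNIP3L had 1806 counts in the resistant and 2213 in the parental library, a ratio of 0.822 (interval 0.772 to 0.875). BNIP3 had 0 and 4 counts, near the floor of 3 counts in both. Among the 12 BNIP3 pseudogenes in the table, BNIP3P4 had 13 resistant and 234 parental counts. ANKRD37, a small ankyrin protein and HIF target, stayed under the minimum with 10 and 19 counts.

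**Figure D4:**
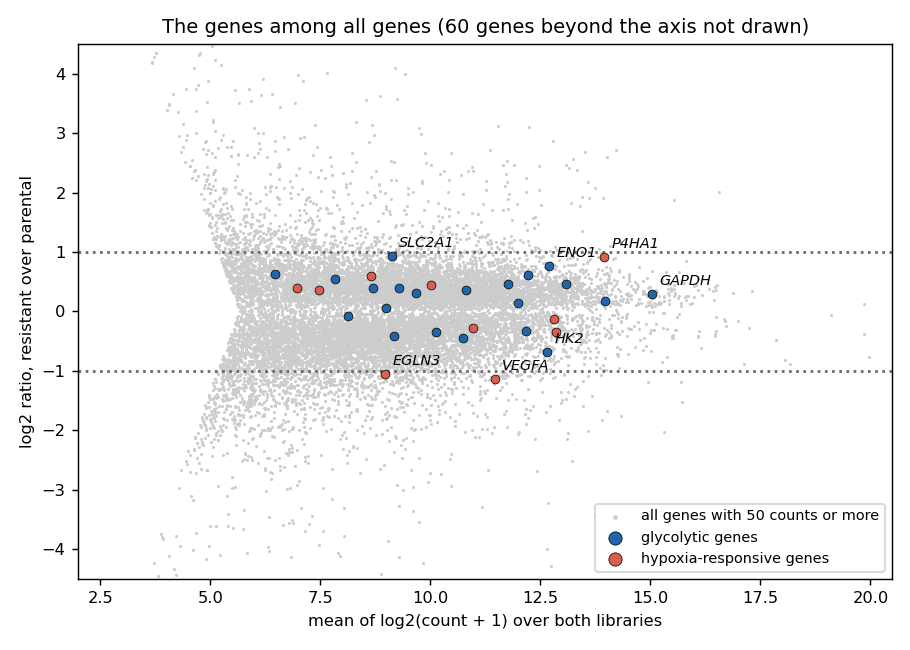
Log2 ratio of the resistant over the parental library against the mean log2 count, for all 15102 genes with at least 50 counts (grey; 60 beyond the axis are not drawn), with glycolytic genes in blue and hypoxia-responsive genes in red. The members lie within the bulk of all genes, VEGFA and EGLN3 just past the dotted 2-fold line.

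Position was compared as a property that the choice of genes did not use. For each member at the minimum, the median log2 ratio of up to 20 neighbouring coding genes was taken, 10 on each side in GENCODE order. Some members resembled their neighbours: HIF1A stood at -0.35 beside a neighbour median of -0.32, LDHA at 0.46 beside 0.39 and GAPDH at 0.30 beside 0.24. Others differed from them: VEGFA stood at -1.14 beside 0.20, SLC2A1 at 0.93 beside -0.17, and HK2 at -0.68 beside 0.32. P4HA1 at 0.91 was beside 0.39 and EGLN3 at -1.06 beside -0.28. Across the 31 members, Pearson's r with the neighbour median was 0.19 and Spearman's rho 0.19, as a description of genes that share both libraries.

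Several values carry a limit of counting. Whether strand was used is not given in the sources used here, and some members overlap another counted gene. EGLN3 overlaps SPTSSA (3622 resistant and 3881 parental counts) and ENO2 overlaps LRRC23 (101 and 134), both on the same strand. PFKFB2 overlaps YOD1 (2927 and 3207) and ANKRD37 overlaps UFSP2 (1462 and 926), both on the opposite strand. ALDOA, GPI, ALDOC and LDHB overlap coding genes that GENCODE lists under a clone name. The one at ALDOC had 1018 resistant and 793 parental counts and the one at GPI 1299 and 1093, both on the same strand. HIF1A overlaps AL137129.1 on the same strand (3153 and 3132), and BNIP3L overlaps PNMA2 on the opposite strand (7500 and 5203). Pseudogenes can take reads of their parent: those named after LDHA held 883 and 671 counts, 8.67% and 8.98% of the counts of LDHA. Those of TPI1 held 6.60% and 7.19% and those of PGAM1 6.41% and 4.72%, while those of GAPDH held 0.249% and 0.505%.

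Other genes of these pathways were read from 8 further lists. Of all genes at the minimum, 51.2% had a log2 ratio above 0 and 15.0% were past 2-fold either way. The 6 genes of lactate and pyruvate transport that reached the minimum, 4 carriers and the carrier partners BSG and EMB, had a median log2 ratio of 0.46, with 4 above 0. Among them SLC16A1 (MCT1), the carrier that moves lactate across the cell membrane, had 25307 counts in the resistant and 11922 in the parental library, 2.14-fold higher (interval 2.09 to 2.18). It was the 1 gene of that list at the minimum past 2-fold, and the mitochondrial pyruvate carrier genes MPC1 and MPC2 stood at 0.53 and 0.73. SLC16A3 (MCT4), a HIF-induced lactate exporter, had only 9 and 21 counts. The pyruvate dehydrogenase list had a median of 0.37 over 9 genes and none past 2-fold, led by PDK4 at -0.81 (1199 and 2113 counts) and the activating phosphatase PDP1 at 0.70 (6415 and 3985).

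Other glucose carriers had a median of -0.66 over 7 genes, with 1 at least 2-fold higher and 2 lower. Of all genes, 6.0% were higher and 8.95% lower by that size. SLC5A1 (SGLT1), the sodium-driven glucose carrier, had 98 counts in the resistant and 400 in the parental library, a ratio of 0.247 (interval 0.196 to 0.308). The inositol carrier gene SLC2A13 had 22 and 57 counts (ratio 0.389, interval 0.226 to 0.646), and SLC2A12 was 2.24-fold higher with 1642 and 738. Other glycolytic isozymes had a median of 0.22 over 8 genes, with 5 above 0. Gluconeogenesis genes had a median of -0.34 over 5 genes, none past 2-fold, with PCK2 at -0.80 and PC at -0.59. The pentose phosphate list had a median of 0.11 over 7 genes, none past 2-fold, with PGLS at -0.24.

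HIF regulators and partners had a median of -0.23 over 12 genes, none past 2-fold, with 5 above 0 and 7 below. Besides EPAS1, those above 0 were CUL2 at 0.41, RBX1 at 0.40, ELOC at 0.28 and ELOB at 0.28, which encode partners of VHL in its ubiquitin ligase. OS9, an endoplasmic reticulum lectin also described as a HIF1A partner, stood at -0.95 (2047 and 3972 counts). The histone acetylase genes EP300 and CREBBP, coactivators of HIF, stood at -0.74 and -0.88, and at -0.15 and -0.62 without the length trend. VHL stood at -0.30. Other HIF targets had a median of -0.27 over 22 genes, with 9 above 0 and 13 below. Of the 22, 2 were at least 2-fold lower, where 8.95% of all genes were. Past 2-fold were BHLHE41, a clock repressor, with 279 counts in the resistant and 813 in the parental library (ratio 0.345, interval 0.30 to 0.396), and PPP1R3C, a glycogen regulator, with 338 and 766 (ratio 0.444, interval 0.390 to 0.505). The collagen lysyl hydroxylase gene PLOD2 stood at 0.74. Without the length trend the median of this list was -0.05, against 0.14 over all genes. CA9, a marker of hypoxia, had 45 and 27 counts.

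**Figure D5:**
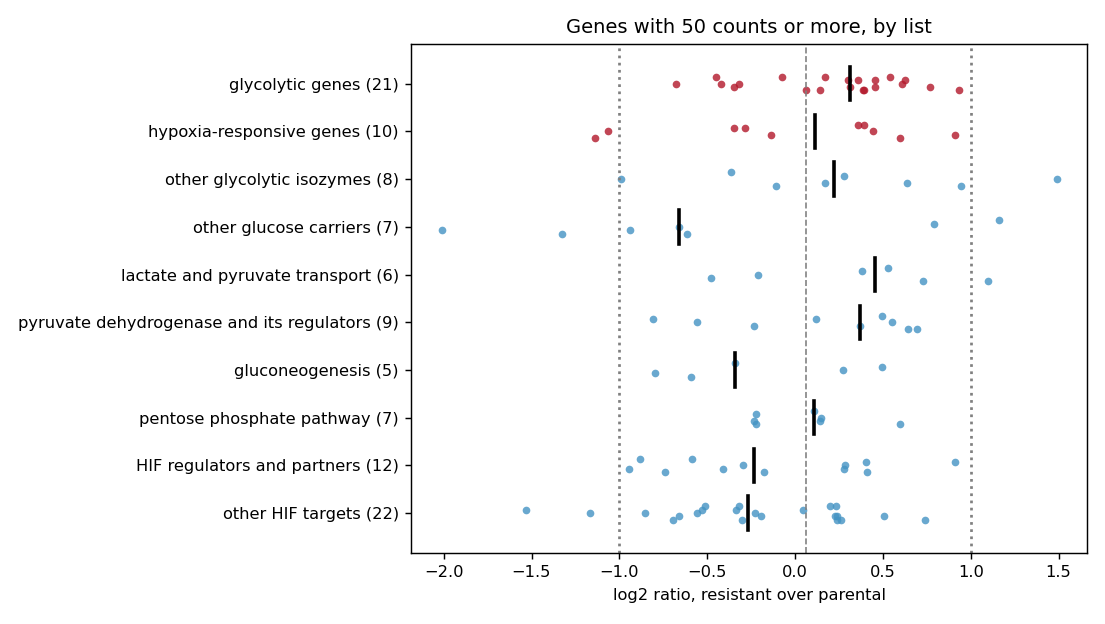
Log2 ratios of the resistant over the parental library for genes with at least 50 counts, as points, by list with the number of genes; black bars are list medians, dotted lines mark 2-fold and the dashed line the median of all genes. The glycolytic genes lie mostly to the right of 0, other glucose carriers and other HIF targets mostly to the left.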

How the data were processed

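ScriptSeq libraries, which keep strand, were made from Trizol-extracted total RNA, per the labels' protocols. The counts as deposited are whole numbers per Ensembl gene with no normalization, and the authors also gave FPKM, a level per gene length and library size, per the file headers. RSEM 1.2.3 and hg19 are named, with no role, per the submitters' processing notes. The annotation, the gene lengths and any rounding of estimates: not given in the sources used here.

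Symbols came from a gene name table (29536 identifiers matched). Gene order, overlaps and transcript lengths came from GENCODE 29, which describes another build, so no gene coordinates from it are printed. Counts were scaled with TMM in edgeR 4.0.16 (R 4.3.3), and log2 ratios used a prior of 1 count. Intervals are exact conditional (Clopper-Pearson) 95% intervals. Relative gene length was implied by dividing counts by FPKM, and its trend was fitted with lowess over a span of 0.3. Values without the length trend therefore rest on implied lengths, which for some genes lie far from the longest GENCODE transcript. Python 3.11.15, numpy 2.4.6, pandas 2.3.3, scipy 1.17.1 and statsmodels 0.14.6 were used, and ratios and intervals were tested on simulated data. All 36 genes are named, and from each list up to 4 genes past 2-fold, or the 2 with the largest ratios, except for results that are not reported here. HKDC1, MPC1, MPC2, SLC16A3, EP300, CREBBP, VHL, CUL2, RBX1, ELOB, ELOC, BSG, EMB, PLOD2 and CA9 were named after their values were seen. The members and lists were chosen with earlier results of these data known.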

Additional observations from a re-analysis of the deposited data

How the results depend on the processing

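No paired analysis was possible because each group has 1 library. No member was at least 2-fold higher and 2 were lower under TMM scaling. These counts were 1 and 1 with upper quartile scaling, 1 and 4 with no count minimum and 1 and 0 without the length trend. At 1.5-fold, 6 were higher and 3 lower. The hypoxia median of 0.11 became -0.13 with a minimum of 10 counts, -0.21 with 200 counts or no minimum, and 0.34 without the length trend, while the glycolytic median stayed between 0.30 and 0.38. The cause was not tested, apart from the minimum, which changes which genes enter. Median of ratios, the total, prior counts of 0.5 or 5 and the FPKM values (0.01 added) changed neither count. Over the 7 settings that can change a gene's own ratio, 190 of 217 member values stayed within their counting interval, 5 crossed 2-fold and 1 changed sign. The median of all genes shifted by less than 0.1 under every scaling tried. It was 0.14 without the length trend, -0.04 and 0.11 with minima of 10 and 200 counts, and -0.07 with no minimum. Intervals cover counting error, not variation between cultures.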
